A study of Equus caballus with 13 samples.

Results

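The matrix metalloproteinases and their tissue inhibitors (TIMPs) were described in cultured horse (Equus caballus) chondrocytes through the synthesis rate and the half-life of their RNAs. The 9 genes were taken by name, namely MMP1, MMP2, MMP3, MMP9, MMP13, MMP14, TIMP1, TIMP2 and TIMP3, out of 11331 genes listed in at least 1 of 2 deposited tables. The table of old against young cells listed 8 of them among 11056 genes, and the table of young male against young female cells listed all 9 among 11249. MMP9 was the member listed in the sex table only.

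The cells came from cartilage of wild-type horses and all received 4-thiouridine (4sU), a uridine analogue that marks the RNA made while it is present, for 4 h. The groups were old females (5 samples), young females (5 samples) and young males (3 samples), with ages in years not stated, and all were cultured for 2 days before labelling. Each table held 1 value per gene and group, estimated by the authors, so that neither the depth of a sample nor the spread between animals is known. No difference below could be tested, and the error of each is unknown. The labels gave 12 batches for 13 samples, and since 1 batch alone held samples of 2 groups, batch and group cannot be told apart. The 5 young female samples served as the reference of both comparisons, which are therefore not independent of each other.

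Metalloproteinases are zinc enzymes that are made as inactive precursors and cut the proteins of the extracellular matrix. In cartilage the collagenases cut the triple helix of collagen II, the gelatinases degrade the unwound chains, and stromelysin cuts proteoglycans and activates other precursors. TIMPs bind the active enzymes and block them, and the balance of both is a classical theme of osteoarthritis research. An RNA can become more abundant through faster synthesis or through slower decay, and 4sU labelling was used to give both rates.

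Genes of several cell types were looked up among the genes listed. All 10 genes of a chondrocyte list, among them COL2A1, ACAN and SOX9, were listed in both tables, whereas 1 of 7 leukocyte genes (CD14), 1 of 5 neutrophil genes (S100A9) and 1 of 4 endothelial genes (VWF) were. PTPRC, CSF1R, PECAM1 and CDH5 were in neither table used here. Of 3 synovial lining genes 1 (HTRA4) was listed, and of 3 osteoclast genes 1 (CTSK). All 6 genes of a fibroblast list, which dedifferentiating chondrocytes also express, were listed. Being listed therefore cannot separate chondrocytes from fibroblastic cells.

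Most members had half-lives above the median of all genes. By the sex table's values for young females, 8 of the 9 members lay above the median half-life of all genes, 3.74 h, and 5 were over 24 h, compared with 7.60% of all genes. Over 24 h were also 4 of 9 members in young male cells, where 12.1% of all genes were. In the age table they were 4 of 8 in young female cells, against 7.38% of all genes, and 2 of 8 in old female cells, against 7.06%. MMP1, the interstitial collagenase, was at the upper limit of the tables, 69.3 h, the half-life at a decay rate of 0.01 per h. MMP2 followed with 50.3 h, MMP9 with 41.5 h, MMP3 with 35.6 h and TIMP1 with 30.2 h. TIMP3 had a half-life of 16.8 h, MMP13 one of 9.08 h, and MMP14 one of 5.12 h. The row named TIMP2 had the shortest half-life, 2.68 h. A second row of this name, TIMP2.1, had 52.1 h, is not in these counts and is described further on. Without replicates it cannot be said which neighbours in this order differ.

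Long half-lives rest on little labelled RNA. Under constant decay, a half-life of 50.3 h means that 5.36% of the MMP2 molecules present were made within the 4 h of labelling, and the limit of 69.3 h means 3.92%. For MMP14 the corresponding share was 41.8% and for MMP13 26.3%. The members with half-lives of 1 to 24 h in all groups, the range taken here as resolved by 4 h of labelling, were MMP13, MMP14, TIMP2 and TIMP3. The second row, TIMP2.1, was over 24 h in all groups.

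**Figure D1:**
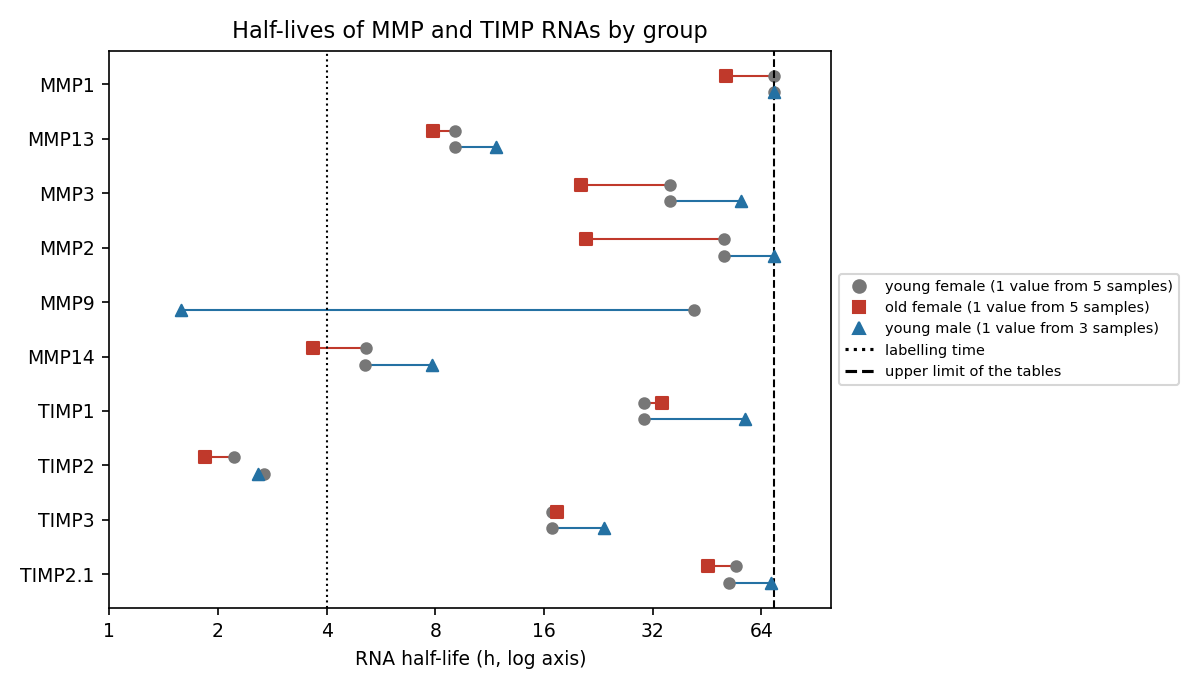
RNA half-lives in hours (log axis) of the 9 members and of the second TIMP2 row, with 1 point per group value of the authors. Lines join a group to the young female value of the same table. MMP2 and MMP3 of old cells lie well to the left of the young female points, MMP9 of male cells lies at 1.58 h against 41.5 h, and MMP1 sits at the upper limit of 69.3 h in both groups of young cells.

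The young female libraries were fitted in both tables, which shows how far a value moved with the estimation alone. For 7 of the 8 members in both tables the 2 half-lives differed by at most 0.220%. One of the 7 was MMP1, whose half-life was at the limit in both tables, so that its agreement says nothing about the estimation. The synthesis rates of the 7 were 4.54% to 4.76% higher in the age table, a near-constant factor of scale. TIMP2 was the exception, with a half-life of 2.22 h in the age table and 2.68 h in the sex table and synthesis rates of 41.9 and 33.0. Its implied level, the product of synthesis rate and half-life divided by ln 2, nevertheless differed by 4.76%, like that of the other members. For TIMP2 the estimation alone thus moved half-life and synthesis rate in opposite directions, with log2 differences of −0.28 and 0.34 between the tables. The implied level is the RNA abundance that both rates would sustain if it were constant during labelling. It stands for abundance in the comparisons that follow, on an arbitrary scale, and on the log2 scale its difference is made up of a synthesis term and a half-life term.

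The first comparison asked how the members differed between old and young female cells. In old cells the implied levels of MMP1, MMP2, MMP3 and TIMP1 were lower by more than 2-fold, and 0 of the 8 members were higher by that much. Among all 11056 genes 1.99% were lower and 2.13% higher by at least 2-fold. The median log2 ratio of implied level was −0.88 over the 8 members and 0.00 over all genes. All 4 lower members had a half-life over 24 h in at least 1 group. Over the 4 members with half-lives of 1 to 24 h the median was −0.14 and 0 were lower by 2-fold, against 1.70% of all genes in that range. MMP2 and MMP3 fell outside that range through their young half-lives alone, with 21.0 h and 20.3 h in old cells. Without MMP1, which was at the half-life limit, the median level ratio of the other members was −0.50. MMP13 was the member with a higher level in old cells, and TIMP2, TIMP3 and MMP14 lay closer to their young values. The 4 lower members were also those with a half-life over 24 h in young male cells, a group outside this comparison, and of the 1281 genes chosen in that way 4.92% were lower in level by at least 2-fold.

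The collagenases MMP1 and MMP13 lay on opposite sides. MMP1 had a synthesis rate of 343.6 in young and 83.7 in old cells (log2 ratio −2.04) and a half-life of 69.3 h in young and 51.0 h in old cells (−0.44). With the limited young half-life, its implied level was 5.57-fold lower in old cells, and 8 of the 11056 genes had a lower ratio. Because the young half-life was at the limit of the tables, any longer true value would go unseen. The true sizes of the half-life and level differences of MMP1, and its rank, are therefore not known. MMP13, the main collagenase of collagen II in cartilage, had a synthesis rate of 189.6 in young and 364.6 in old cells, with half-lives of 9.09 and 7.88 h. Its implied level was 1.67-fold higher in old cells (log2 ratio 0.74), a ratio exceeded by 438 genes. MMP1, MMP3, MMP12 and MMP13 follow each other directly in the horse genome in this order (RefSeq, assembly TB-T2T). Along it the log2 ratios of implied level to young female cells were −2.48, −1.26, −0.05 and 0.74 in old cells. In male cells they were −0.71, −0.89, 0.28 and 1.25. The MMP1 values rest on half-lives at the limit, and an order along the genome was not tested.

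For stromelysin-1, MMP3, and the gelatinase MMP2 the half-life term was the larger one. The half-life of MMP3 was 35.7 h in young and 20.3 h in old cells (log2 ratio −0.81), and its synthesis rate was 6363 in young and 4676 in old cells (−0.44). Both terms had the same sign and gave a 2.39-fold lower implied level. MMP2 had nearly the same synthesis rate in both groups, 167.5 in young and 165.1 in old cells, but a half-life of 50.4 h in young and 21.0 h in old cells. This half-life ratio (log2 −1.27) was the single one of the 8 members past 2-fold, where 2.06% of all genes were past it in this direction. The share of MMP2 molecules made during labelling was correspondingly 5.35% in young and 12.4% in old cells. The implied level of MMP2 was 2.44-fold lower in old cells, and 112 genes had a lower ratio.

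MMP14, a membrane-bound metalloproteinase that activates the MMP2 precursor, had a half-life of 5.13 h in young and 3.67 h in old cells and nearly equal synthesis rates, 6560 and 6488. Its implied level was 1.41-fold lower (log2 ratio −0.50). The 5 metalloproteinase members listed all had a shorter half-life in old cells (median log2 ratio −0.48), while 36.5% of all genes had a longer one and the median over all genes was −0.08. Outside the members, MMP12 also had a shorter half-life in old cells and MMP16 a longer one. The count was not tested.

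Among the inhibitors the difference of TIMP1 was larger than that of TIMP3. The synthesis rate of TIMP1, a secreted inhibitor of most metalloproteinases, was 2236 in young and 742.7 in old cells (log2 ratio −1.59), a ratio lower than in all but 161 genes. MMP1 and TIMP1 were the 2 members with a synthesis rate lower by at least 2-fold in old cells, compared with 2.92% of all genes. The half-life of TIMP1 was 30.3 h in young and 34.0 h in old cells, so that the lower implied level, 2.68-fold, came from the synthesis term. TIMP3, an inhibitor bound to the matrix that also blocks aggrecanases, had half-lives of 16.9 h in young and 17.4 h in old cells and synthesis rates of 25614 and 22132. Its implied level was 1.12-fold lower in old cells (log2 ratio −0.17).

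**Figure D2:**
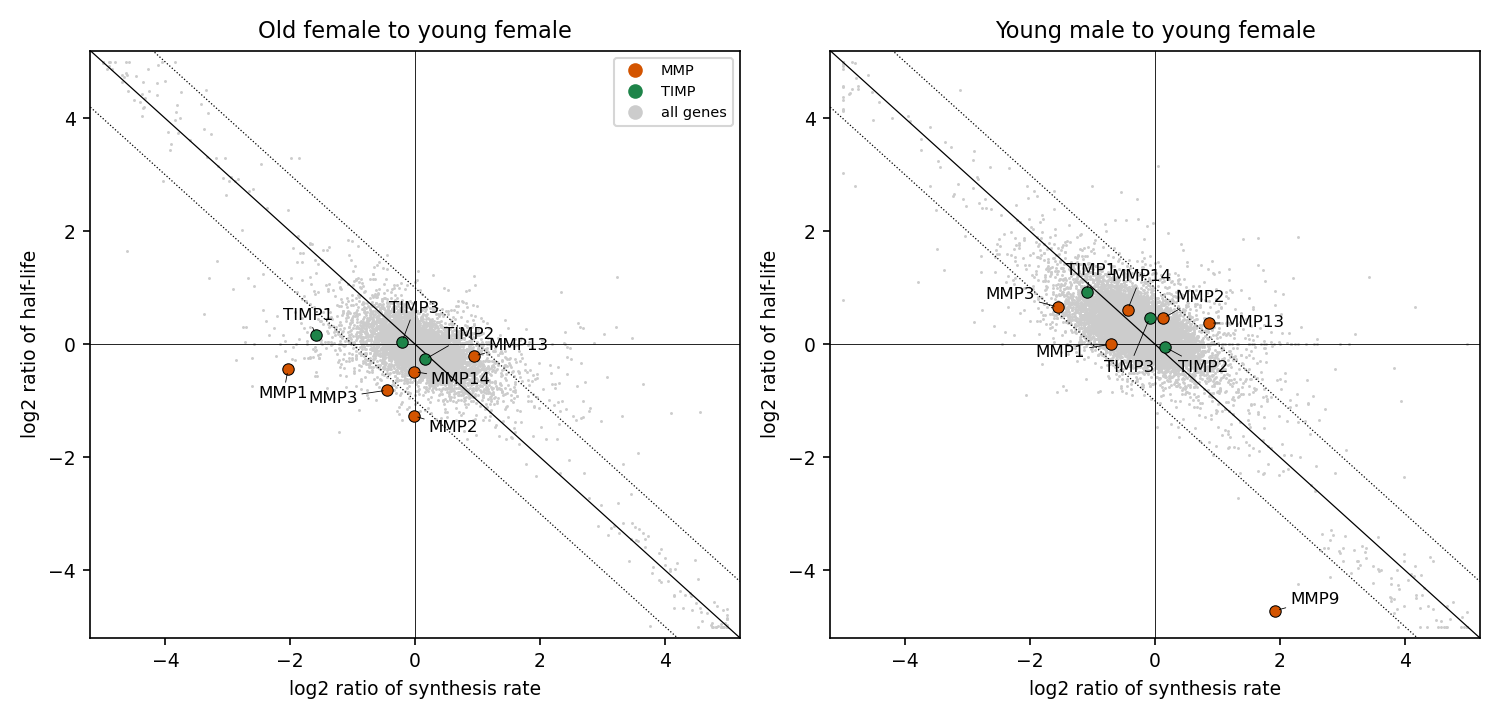
The log2 ratio of synthesis rate (horizontal) and of half-life (vertical) for old to young female cells (left) and young male to young female cells (right), with members coloured by family over all genes in grey; grey points beyond 5 are drawn at 5. On the solid diagonal the implied level is equal in both groups, and the dotted lines mark 2-fold differences of it. In old cells MMP1 and TIMP1 are displaced along the synthesis axis and MMP2 along the half-life axis, and in male cells MMP9 lies far down.

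The 2 rows for TIMP2 gave different pictures. TIMP2 inhibits metalloproteinases and also links the MMP2 precursor to MMP14 on the cell surface. The row named TIMP2 had a half-life of 2.22 h in young and 1.84 h in old cells and synthesis rates of 41.9 and 46.7. A second row, TIMP2.1, had a half-life of 54.5 h in young and 45.7 h in old cells and synthesis rates of 1006 and 1445. In young cells the implied level of TIMP2.1 was 79128 and that of the first row 134. The level of TIMP2.1 was 1.20-fold higher in old cells (log2 ratio 0.27), while that of the first row was 1.08-fold lower (−0.11). In male cells TIMP2.1 had a half-life of 68.1 h against 52.1 h and a 1.60-fold higher implied level, and the row TIMP2 had 2.59 against 2.68 h and a 1.08-fold higher one. With the young female values of the age table the male half-life ratio of the row TIMP2 turned from −0.05 to 0.22 and its synthesis ratio from 0.17 to −0.18. Such suffixed names occurred in 28 rows of the age table and 29 of the sex table, and neither the headers nor the labels say which gene model each row stands for. The counts given for the 9 members use the row named TIMP2. Its synthesis rate in young cells of the age table was lower than that of all but 10.5% of genes.

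The second comparison asked how the members differed between young male and young female cells. MMP13 was higher in implied level in male cells by more than 2-fold, MMP9 was lower, and the other 7 members were within 2-fold. Over all 11249 genes 3.00% were higher and 1.61% lower by at least 2-fold. The median log2 ratio of implied level was 0.11 over the 9 members and 0.01 over all genes. Half-lives as a whole were longer in male cells (median log2 ratio of all genes 0.27) and synthesis rates lower (−0.28), so for the members other than TIMP2 ratios of these 2 quantities are also given relative to those medians. The 777 genes over 24 h in old cells had a median log2 ratio of 0.50 for half-life, of −0.01 for synthesis rate and of 0.47 for implied level in male cells. The male values rested on 3 samples and the female ones on 5.

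MMP13 had a synthesis rate of 181.4 in female and 331.5 in male cells and a half-life of 9.08 h in female and 11.8 h in male cells. Relative to all genes the log2 ratio of synthesis rate was 1.15 and that of half-life 0.10, and relative to genes in the same decile of half-life (ordered by the value in old cells) they were 1.05 and −0.01. The implied level was 2.37-fold higher in male cells, and 216 genes had a higher ratio. MMP1 was at the half-life limit in both groups, so that a difference in decay was not detectable, and the ratio of 0.00 was −0.27 relative to all genes. Its synthesis rate was 327.9 in female and 200.8 in male cells, a log2 ratio of −0.71 or of −0.43 relative to all genes, and its implied level was 1.63-fold lower (log2 ratio −0.71, or −1.13 relative to genes in the same half-life decile). With both half-lives at the limit, the level ratio is only the synthesis ratio, and its true size is not known.

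MMP3 had a lower synthesis rate in male cells. The synthesis rate was 6086 in female and 2083 in male cells, a log2 ratio of −1.55 or of −1.27 relative to all genes. MMP3 and TIMP1 were the 2 members lower in synthesis rate by at least 2-fold, where 8.37% of all genes were. The half-life of MMP3 was 35.6 h in female and 56.2 h in male cells, a log2 ratio of 0.66 that was 0.38 relative to all genes and 0.15 relative to the same half-life decile. With both terms the implied level was 1.85-fold lower in male cells (log2 ratio −0.89), and relative to genes in the same half-life decile the ratio was −1.32.

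The gelatinases differed from each other. MMP2 had synthesis rates of 160.2 in female and 175.3 in male cells and a half-life of 50.3 h in female cells, and in male cells it was at the limit of 69.3 h. Any longer true male value would go unseen, so the half-life and level ratios of MMP2 are those of the limited value and their true sizes are not known. The log2 ratio of half-life, 0.46, was 0.19 relative to all genes and −0.04 relative to the same half-life decile, and that of synthesis rate, 0.13, was 0.41 relative to all genes. Its implied level was 1.51-fold higher in male cells, a log2 ratio of 0.59 that was 0.16 relative to genes in the same half-life decile. MMP9, gelatinase B, had a half-life of 41.5 h in female and 1.58 h in male cells, while its synthesis rate was 14.8 in female and 56.3 in male cells. It was the single member lower in half-life by at least 2-fold (1.96% of all genes) and the single one higher in synthesis rate (3.78%). Relative to all genes the log2 ratios were −4.99 for half-life and 2.21 for synthesis rate. The implied level was 6.92-fold lower in male cells, and 3 of the 11249 genes had a lower ratio. The female synthesis rate was lower than that of all but 4.68% of genes, on a scale not stated to be per length, and MMP9 had no second estimate in the age table.

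MMP14 had a half-life of 5.12 h in female and 7.82 h in male cells and synthesis rates of 6271 and 4624, and its level was 1.13-fold that of female cells. Relative to all genes its log2 ratio was 0.34 for half-life and −0.16 for synthesis rate. TIMP1, a gene of the X chromosome, had a synthesis rate of 2136 in female and 1001 in male cells, a log2 ratio of −1.09 that was −0.82 relative to all genes and −1.04 relative to the same half-life decile. Its half-life was 30.2 h in female and 57.6 h in male cells (log2 ratio 0.93, or 0.66 relative to all genes and 0.42 relative to the same decile), and the implied level was 1.12-fold lower in male cells. That level ratio (log2 −0.16) was −0.59 relative to genes in the same half-life decile. The part of the estimation in the opposite synthesis and half-life terms of TIMP1 was not tested. TIMP3 had half-lives of 16.8 and 23.4 h in female and male cells, synthesis rates of 24494 and 23124, and a level 1.31-fold that of female cells, a log2 ratio of 0.39 that was 0.10 within the half-life decile. Its half-life ratio of 0.47 was 0.20 relative to all genes. The sign of its synthesis ratio turned with the scaling, from −0.08 to 0.20 relative to all genes.

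**Figure D3:**
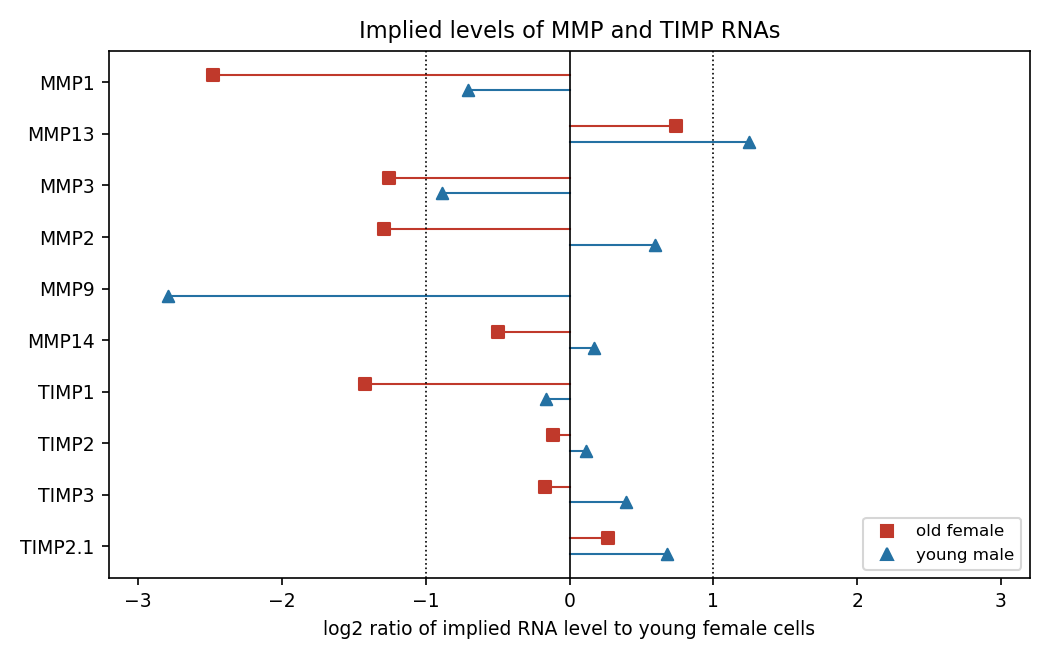
The log2 ratio of implied RNA level to young female cells for each member and for the second TIMP2 row, with squares for old female and triangles for young male cells and dotted lines at 2-fold. In old cells MMP1, MMP2, MMP3 and TIMP1 lie to the left of the lower line, from −1.26 for MMP3 to −2.48 for MMP1. In male cells MMP9 lies to the left at −2.79 and MMP13 to the right at 1.25. The values of MMP1, and that of MMP2 in male cells, rest on half-lives at the limit.

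Side by side, with the same young female reference, MMP2 had an implied level log2 ratio of −1.29 in old and 0.59 in male cells. TIMP1 had −1.42 in old and −0.16 in male cells, MMP1 −2.48 and −0.71, MMP3 −1.26 and −0.89, and MMP13 0.74 and 1.25. The values of MMP1, and that of MMP2 in male cells, rest on half-lives at the limit. A difference between the age and the sex effect was not tested for any member, as it would need values per sample.

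The summed level of fibroblast genes differed between the groups. The summed implied level of the 6 genes COL1A1, COL1A2, COL3A1, THY1, PDGFRB and FAP was 164903 in young and 83072 in old female cells, 0.504-fold. In old cells 6 of 6 were lower, 3 of them by at least 2-fold. Of all genes 50.7% were higher in old cells, and 1.99% were lower by at least 2-fold. In the sex table the summed level was 157423 in young female and 390207 in male cells, 2.48-fold. In male cells 6 of 6 were higher, 4 of them by at least 2-fold. Of all genes 50.5% were higher in male cells, and 3.00% were higher by at least 2-fold. Of the 777 genes over 24 h in old cells, 90.7% were higher in male cells. How many of the fibroblast and chondrocyte genes were among these was not counted. The summed level of the 10 chondrocyte genes was 0.912-fold in old cells, with 4 of 10 higher and a median log2 ratio of −0.31, and 2.51-fold in male cells, with 9 of 10 higher. By at least 2-fold, 1 of the 10 was lower in old cells and 6 were higher in male cells, against the same 1.99% and 3.00%. FAP, CHAD and CNMD had half-life log2 ratios of 0 in both comparisons, as MMP1 had at the limit in male cells. Their level ratios are synthesis ratios alone, also those of CHAD (1.78) and CNMD (1.74) in male cells. The level of the neutrophil gene S100A9 was 0.501-fold in old and 0.679-fold in male cells. That of CD14 was 1.20-fold and 1.11-fold, and that of VWF 1.20-fold and 1.03-fold. In bulk cultures fewer cells of a type and less RNA per cell cannot be told apart, and the part of these shifts in the values of MMP2, TIMP1, MMP9 and the other members was not tested.

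Other genes of matrix proteolysis were taken from a list of 45 metalloproteinases, activators, inhibitors and receptors, of which 27 were listed in the age table and 30 in the sex table. In old cells the implied level was lower by at least 2-fold for 4 of the 27 and higher for 0 (median log2 ratio −0.10), compared with 1.99% lower and 2.13% higher over all genes. The 4 were PLAU, the urokinase that makes plasmin, an activator of metalloproteinase precursors (log2 ratio −2.20), its receptor PLAUR (−1.78), the plasmin inhibitor TFPI2 (−1.54), and CD44, a hyaluronan receptor that holds metalloproteinases at the cell surface (−1.06). For PLAU and PLAUR the synthesis term was the larger one, at −2.08 and −1.54, and for TFPI2 it was the half-life, 41.4 h in young and 16.4 h in old cells.

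MMP12, the macrophage elastase and neighbour of MMP3 and MMP13, had a half-life of 44.8 h in young and 21.0 h in old cells (log2 ratio −1.09) and a synthesis ratio of 1.04, with a level ratio of −0.05. The part of the estimation in these opposite terms was not tested. MMP16, a membrane-bound metalloproteinase, had a half-life of 7.31 h in young and 7.81 h in old cells, a synthesis ratio of −1.02 and a level ratio of −0.92. In male cells the level ratio was 0.28 for MMP12 and −0.12 for MMP16.

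In male cells 3 of the 30 listed genes were higher in implied level by at least 2-fold and 2 lower, with a median log2 ratio of 0.27, compared with 3.00% higher and 1.61% lower over all genes. Those higher were MMP19 (1.96), the matrix serine protease HTRA1 (1.26) and ADAM15 (1.10), and those lower were TFPI2 (−2.17) and the lysosomal protease CTSL (−1.09). HTRA1 and ADAM15 were among the genes over 24 h in old cells, whose median log2 level ratio in male cells was 0.47. TFPI2 differed through synthesis (−2.40) and CTSL through half-life, 28.0 h in female and 10.2 h in male cells. MMP19, MMP28 and TIMP4 were listed in the sex table only. MMP19 had synthesis rates of 3.05 in female and 9.78 in male cells (log2 ratio 1.68), the female one below that of MMP9 (14.8). Its half-lives were 35.5 h in female and 43.2 h in male cells, outside the range of 1 to 24 h. MMP19 had no second estimate in the age table. MMP28 had half-lives of 3.97 and 7.35 h with a level ratio of 0.10, and TIMP4 had half-lives of 19.5 h and the limit of 69.3 h, a synthesis ratio of −1.41 and a level ratio of 0.42 that rests on the limited half-life.

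**Figure D4:**
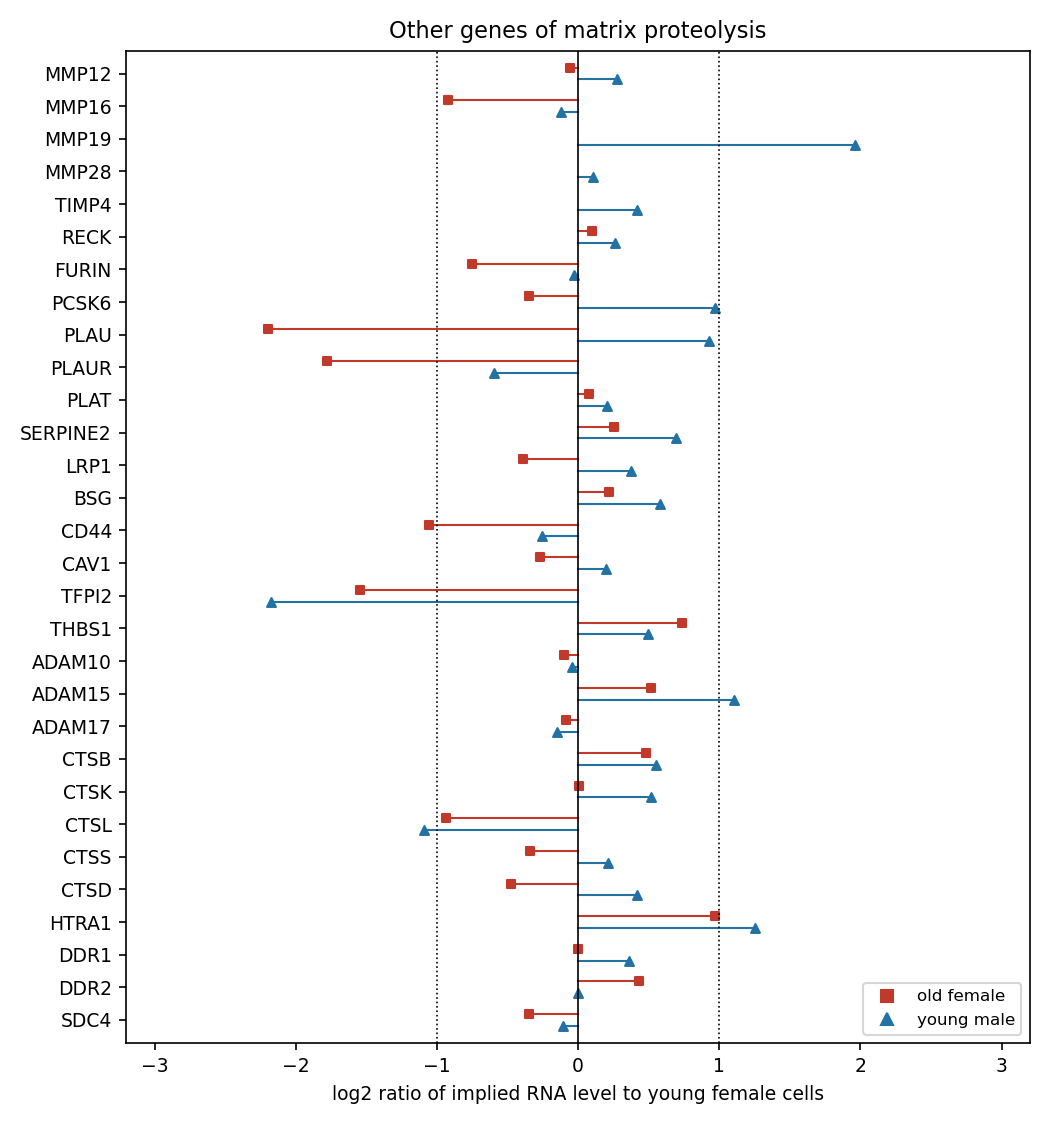
The log2 ratio of implied RNA level to young female cells for the 30 listed genes of matrix proteolysis outside the 9 members, with squares for old female and triangles for young male cells and dotted lines at 2-fold. PLAU, PLAUR, TFPI2 and CD44 lie beyond the lower line in old cells, and MMP19, HTRA1 and ADAM15 beyond the upper line in male cells.

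Genes with the most similar pattern were sought by the Euclidean distance over 4 log2 ratios (half-life and synthesis rate, old and male, each to young female) among 10685 genes below the half-life limit in all groups. The search covered TIMP1, MMP3 and MMP13, the members past 2-fold in level in a comparison that met this condition, and rests on 3 groups only. Nearest to TIMP1 were HAPLN3 (distance 0.33), BMPER (0.37) and LIPG (0.39). Nearest to MMP3 were GSR (0.41), CYP1B1 (0.52) and TMEM65 (0.52), and nearest to MMP13 were TMEM220 (0.25), SLC6A12 (0.26) and EFHD1 (0.26).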

How the data were processed

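The authors deposited 2 tables, one of old against young cells and one of young male against young female cells, each with a synthesis rate and a half-life per gene and group, per the file headers. Synthesis rates are a signal in arbitrary units in the deposited tables, and half-lives were read as hours from the 4 h of labelling. RNA was alkylated for 15 min, poly(A)-selected and made into strand-specific libraries, per the labels' protocols. The submitters' processing notes name cutadapt 4.5, STAR 2.5.3 and the build EquCab 3.0; the kinetic model, the annotation, the gene filter and how replicates were combined are not given in the sources used here. The column "Young" was read as young female, because the labels of those samples alone assign them to both tables.

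Log2 ratios were computed within a table over all genes, with no pseudocount or filter, and a difference was counted from an absolute log2 ratio of 1 (2-fold). With 0 columns of values per sample no test, interval or floor could be computed, and the description by ratio that the design provided for this case was used. The members and lists were chosen with earlier results of these data known. All 9 members were to be named, with any other listed MMP or TIMP and those of 45 further genes past 2-fold in level or synthesis rate; the list also held 1 gene that was left out of all its counts and is not reported here. All 9 matched RefSeq by symbol. The calculation was tested on simulated data (Python 3.11.15, pandas 2.3.3, numpy 2.4.6). Alternatives were another threshold, filters on half-life and synthesis rate, centring, and the other table's young female values. Those without TIMP2, MMP9 or half-lives at the limit, or with TIMP2.1, were chosen after seeing the data.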

Additional observations from a re-analysis of the deposited data

How the results depend on the processing

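Each value is a group estimate, so a count was taken as moved beyond 1.5 times and a log2 value beyond 0.1. No paired analysis was possible because the tables hold no values per sample, and for the same reason no replicate could be left out. The filters on half-life and synthesis rate cannot alter a member's own ratio, so their single-member values were the same by construction. Of 219 alternative values of single members, these included, 173 moved by less than 0.1. None that was past 2-fold turned in sign, while 6 crossed the 2-fold limit. The 6 were the synthesis rate of MMP13 in old cells (1.01 with the other table's young female values) and in male cells (1.15 centred on all genes, 1.05 within half-life deciles), that of TIMP1 in male cells (−0.82 centred), and the male implied levels of MMP1 (−1.13) and MMP3 (−1.32) within half-life deciles. The MMP1 value rests on half-lives at the limit in both groups.

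In old cells, half-lives of 1 to 24 h left 4 members, with 0 lower in half-life, synthesis rate or level and medians of −0.24, 0.070 and −0.14. Of all genes in that range 0.626%, 1.67% and 1.70% were lower. At a threshold of 0.5, 2 members were lower in half-life (8.88% of all genes), 1 higher in synthesis rate (14.8%) and 1 higher in level (8.19%). With the other table's young female values 1 was higher in synthesis rate (5.84% of all genes), and the half-life median was −0.46. The level median was −1.26 in the upper 75% by synthesis rate and without TIMP2, and −0.50 without members at the half-life limit, where 1 was lower in synthesis rate (2.79%).

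In male cells, half-lives of 1 to 24 h left 4 members, with 0 lower in half-life (0.355% of all genes in that range). Of the 4, 0 were past 2-fold in synthesis rate (1.61% higher and 7.72% lower) and 0 lower in level (1.53%). The medians were 0.041 for synthesis rate and 0.28 for level. MMP9 decided the count lower in half-life, the count higher in synthesis rate and the count lower in level: each was 0 without it, in the upper 75% by synthesis rate and with young female values from the age table, which does not list MMP9. Centring within half-life deciles, which drops MMP9 too, gave 0 lower in half-life, 2 lower in level (0.893% of all genes so centred) and a half-life median of 0.00020. At a threshold of 0.5, 3 members were higher in half-life (27.4% of all genes), 2 higher in synthesis rate (8.96%), and 2 higher (13.0%) and 3 lower (12.0%) in level. Centring on all genes gave 2 higher (5.79% of all genes so centred) and 1 lower (4.08%) in synthesis rate and medians of 0.19 for half-life and 0.20 for synthesis rate. The synthesis median was −0.44 in the upper 75%, −0.34 with the other table's values and −0.26 without TIMP2 or without MMP9, and the level median was 0.0035 without TIMP2. Except where members were left out and nothing else was altered, the cause was not tested.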
